A study of Homo sapiens with 6 samples.

Results

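RNA helicases and ribosome assembly factors were described in DU145 prostate cancer cells that overexpressed the transcription factor TFEB. Members were the protein-coding genes of the deposited table whose symbols begin with DDX, DHX, NOP, UTP, NOL or RRP and a number, or with POLR1, together with BOP1, FBL, NCL and DKC1. The rule gave 69 of the 10542 genes in the table, and no measured value entered it. GENCODE 29 holds 103 protein-coding genes that fit the same rule, and the other 34, IMP3 and IMP4 among them, were not analysed here. Every gene of the table has a deposited adjusted p-value below 0.05 in this same comparison. A count of changed members is therefore read only against the share of changed genes in the whole table. For the same reason, an adjusted p-value below 0.05 given below for a listed gene is no separate evidence that it changed.

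RNA-sequencing was performed on 6 polyA RNA libraries of DU145, an established human prostate cancer cell line. In 3 libraries (DU145-TFEB) the cells carried a TFEB-overexpression lentivirus, and in 3 libraries (DU145-vector) they carried an empty lentivirus. Both were selected with puromycin as stable lines, and each group therefore stands for 1 transduced line. Nothing in the labels says that the 3 libraries of a group came from separate cultures, so p-values measure the spread between these libraries, which may be technical. The listed genes received 13999961 to 16511477 reads per library. The TFEB mRNA itself was read at 6325, 6301 and 6036 normalized counts in DU145-TFEB and at 127.4, 123.9 and 125.0 in DU145-vector, as the labels say, where a normalized count is a read count divided by 1 size factor per library. Of the epithelial markers, KRT8, KRT18 and KRT19 were present in all 6 libraries (the lowest value was 1451 normalized counts).

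Ribosomes are built in the nucleolus. RNA polymerase I transcribes the precursor of the ribosomal RNAs, the UTP proteins and other factors fold and cut it within the small-subunit processome, small nucleolar ribonucleoproteins (snoRNPs) guide its chemical modification, and a separate set of factors assembles the large subunit. DEAD-box (DDX) and DEAH-box (DHX) proteins use ATP to unwind or remodel RNA at many of these steps, and others of the family work in splicing, translation, mRNA decay or the sensing of viral RNA.

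TFEB binds an E-box with the core CACGTG, which MYC and related factors also bind, so the members' promoters were searched for these letters. The core is its own reverse complement, so that 1 search covers both strands. RefSeq promoters (GRCh38.p14, 250 bases before to 50 bases after a start site) were matched by symbol for 58 of the 69 members, and a gene was counted where any of its listed starts held the core. It was found for 14 of 58 members (24.1%), for 10 of 27 members with a role in ribosome assembly (37.0%) and for 4 of 31 other helicases (12.9%). The share was 12.6% among 7392 listed protein-coding genes and 8.77% among all 27305 genes of the promoter table. Of the members with the core, 6 were higher and 8 were lower in DU145-TFEB (6 of 19 higher members with a promoter, or 31.6%, and 8 of 39 lower members, or 20.5%), so the core stood on both sides. The median log2 fold change was -0.56 over the members with the core and -0.88 over those without it. It was 0.21 and -0.42 over the listed protein-coding genes with and without it. These directions and medians are those of the deposited scaling, under which log2 fold changes rose with GC content. Whether the core went with direction at equal GC content was not tested. After a trend with GC content and gene length was removed, DHX37 (-0.73), RRP9 (-0.58), DHX34 (-0.58), DDX54 (-0.46) and FBL (-0.33) turned negative. NOP10 (0.52) stayed positive, and the 8 lower members with the core stayed negative. The 100 bases before the start are shown for 2 lower members, DDX21 and UTP20, and 2 higher members, NOP10 and DDX54, 5′ to 3′ on the gene's strand, with the core in capitals. It begins 31, 10, 11 and 61 bases before the start site, respectively. The start sites are those of RefSeq, and for DDX21, NOP10 and DDX54 they lie within the gene interval of the deposited table. The DDX21 stretch thus falls wholly and the NOP10 stretch partly inside that interval, with the core inside it in both. Of the DDX54 stretch only the last base lies inside, and the core lies outside. A match of letters does not show that a factor binds there.
DDX21, chr10:68956547-68956646, plus strand: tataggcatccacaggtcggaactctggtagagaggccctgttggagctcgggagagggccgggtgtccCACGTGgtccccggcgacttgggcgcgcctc
UTP20, chr12:101280005-101280104, plus strand: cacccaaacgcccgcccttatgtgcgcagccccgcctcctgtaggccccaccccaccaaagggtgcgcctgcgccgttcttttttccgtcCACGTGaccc
NOP10, chr15:34343137-34343236, minus strand: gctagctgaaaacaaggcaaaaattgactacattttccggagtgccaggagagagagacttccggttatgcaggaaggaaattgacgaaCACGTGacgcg
DDX54, chr12:113185479-113185578, minus strand: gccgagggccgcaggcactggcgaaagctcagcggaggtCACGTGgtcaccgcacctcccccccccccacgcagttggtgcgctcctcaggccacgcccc

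More members were lower than higher in DU145-TFEB. By limma with Benjamini-Hochberg adjustment over all listed genes, 47 of the 69 members (68.1%) were lower and 22 (31.9%) were higher at an adjusted p below 0.05, against 52.4% lower and 47.6% higher among all listed genes. When an absolute log2 fold change above 1.5 was also asked for, 18 members (26.1%) were lower and 1 (DHX58) was higher, against 16.5% and 2.54% of all listed genes. The normalized counts of the 2 groups did not overlap for any of the 69 members, which was also the case for 99.3% of all listed genes. The median log2 fold change was -0.87 over the members and -0.36 over all listed genes, a difference of -0.51. These are relative levels in bulk RNA, in which fewer cells that express a gene and less RNA per cell cannot be told apart.

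The direction of a member went with the base composition of its transcripts. The GC content of the annotated transcripts was 35.5 to 51.6% in the 47 lower members and 47.1 to 65.3% in the 22 higher members. All 34 members under the median GC content of 44.1% were lower (median -1.58 on the log2 scale), and of the other 35 members 22 were higher and 13 were lower (median 0.39). Across the 69 members the rank correlation (Spearman's rho) of the log2 fold change with GC content was 0.89, and across all listed genes it was 0.75, both as descriptions, since all genes share the same 6 libraries. When the trend of the log2 values with GC content and gene length over all listed genes was removed from each library, 52 members were lower and 3 were higher (NOP10, UTP6 and DHX58) by limma at an adjusted p below 0.05, against 54.5% lower and 14.8% higher among all listed genes. No member passed both cutoffs there, against 3.79% lower and 1.44% higher among all listed genes, and the medians were -0.50 over the members and -0.32 over all listed genes. The trend separates the 2 groups of libraries, so that a difference between the cell lines and one between the preparations cannot be told apart. The log2 fold changes below are those of the deposited scaling, and the value after removal of the trend is given for each named gene that changed sign. Counts of lower and higher genes in each role list are to be read against the shares of all listed genes. These were 52.4% lower and 47.6% higher under the deposited scaling, and 54.5% and 14.8% after removal of the trend. A value in parentheses after a gene's name or counts is a log2 fold change, with its standard error after the ± sign (n = 3 libraries per group), and a median over a list is a median log2 fold change.

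**Figure D1:**
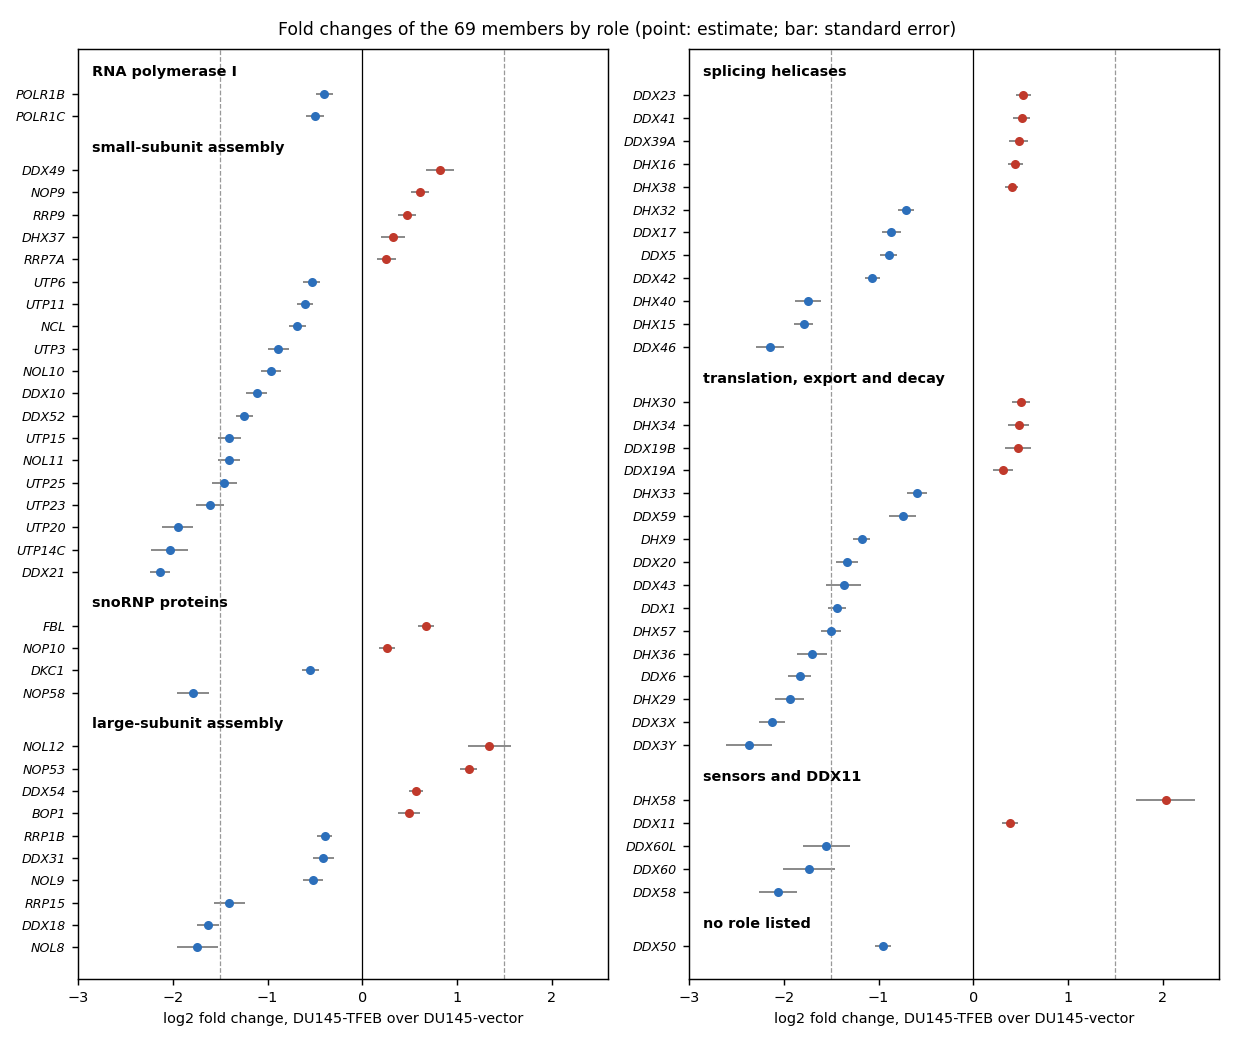
The log2 fold change of DU145-TFEB over DU145-vector (horizontal axis) is plotted for each of the 69 members, grouped by role, with red points for higher and blue points for lower members, bars for the standard error and dashed lines at -1.5 and 1.5. All 8 members with UTP symbols lie to the left of 0, and DHX58 alone lies to the right of 1.5.

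The 2 members that are RNA polymerase I subunits, POLR1B and POLR1C, were lower, by less than most other lower members. POLR1B, the second largest subunit, had 515.6, 544.1 and 464.1 normalized counts in DU145-TFEB and 661.6, 692.5 and 654.0 in DU145-vector. Its log2 fold change was -0.40 ± 0.094 (SE, n = 3 per group; limma adjusted p = 0.0026), and it was 0.00960 with quantile normalization. It also no longer passed the test with median of ratios (-0.16) or after removal of the trend (-0.04). POLR1C, a subunit shared with RNA polymerase III, had 528.2, 604.2 and 592.9 against 845.9, 835.8 and 751.0 normalized counts, a log2 fold change of -0.50 ± 0.095 (limma adjusted p = 0.000792), and did not pass the test with quantile normalization (-0.12). The polymerase I list holds 16 other symbols, among them older and newer names of the same genes. Of these, 9 were in the table, 6 lower and 3 higher. The lower ones included RRN3, which brings the polymerase to the promoter (-1.65), and the higher ones UBTF, which binds the ribosomal DNA (0.33, and -0.50 after removal of the trend). TWISTNB (-1.88) and CD3EAP (0.46, and -0.48 after removal of the trend) are also polymerase I subunits, so that the subunits in the table went both ways. After removal of the trend 7 of the 9 were lower and 0 higher by limma at an adjusted p below 0.05. Among all listed genes 54.5% were lower and 14.8% higher there.

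Of the 19 small-subunit members, 14 were lower and 5 were higher (median -0.96 on the log2 scale). All 8 members with UTP symbols were among the lower ones. The largest decrease was that of DDX21, a nucleolar helicase that acts on ribosomal RNA and its transcription (chromosome 10, 68956128 to 68985073, GRCh38). It had 1425, 1254 and 1710 normalized counts in DU145-TFEB and 6463, 6735 and 5981 in DU145-vector. The highest DU145-TFEB library was far below the lowest DU145-vector library, and the log2 fold change was -2.14 ± 0.11 (SE; limma adjusted p = 2.3e-06). UTP20, a large scaffold protein of the processome, had 356.7, 279.3 and 451.7 against 1320, 1573 and 1256 normalized counts, a log2 fold change of -1.95 ± 0.17 (limma adjusted p = 7.41e-06). In both genes the third DU145-TFEB library was the highest of its group and still separate from every DU145-vector library.

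UTP14C, a copy of the processome gene UTP14A, had 29.5, 30.0 and 43.6 normalized counts in DU145-TFEB against 140.2, 138.5 and 146.0 in DU145-vector, a log2 fold change of -2.03 ± 0.20 (limma adjusted p = 1.37e-05). Its exons overlap those of ALG11 on the same strand, and reads can be shared with UTP14A, so that this value is uncertain. UTP3, a short processome factor, was lower by less, with 348.3, 410.4 and 395.6 against 671.4, 792.9 and 672.0 normalized counts (log2 fold change -0.89 ± 0.11, limma adjusted p = 5.52e-05). The members with UTP symbols thus ran from -2.03 to -0.54, the last being UTP6, which was 0.25 after removal of the trend. UTP11, at -0.60, was 0.03 after it.

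NCL, or nucleolin, an abundant nucleolar RNA-binding protein, had 7492, 8257 and 7505 normalized counts in DU145-TFEB and 12327, 14086 and 11104 in DU145-vector. The groups were separate, and the log2 fold change was -0.68 ± 0.092 (SE; limma adjusted p = 9.24e-05). The 5 higher members of the small-subunit list were DDX49, NOP9, RRP9, DHX37 and RRP7A, with GC contents of 54.5 to 61.6%. The calls of DHX37 (0.32 ± 0.13) and RRP7A (0.25 ± 0.10) were lost when single libraries were left out. DDX49, a helicase of pre-ribosomal RNA processing, had 614.5, 837.1 and 570.0 against 343.1, 423.3 and 364.0 normalized counts, a log2 fold change of 0.82 ± 0.15 (limma adjusted p = 0.000646). RRP9, a protein of the U3 snoRNP, had 566.1, 603.3 and 562.8 against 416.6, 396.9 and 435.0, a log2 fold change of 0.47 ± 0.091 (limma adjusted p = 0.000864). All 5 changed sign after removal of the trend, DDX49 to -0.26, NOP9 to -0.12, RRP9 to -0.58, DHX37 to -0.73 and RRP7A to -0.71.

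The other small-subunit genes of the fixed list divided in a like way, with 15 lower and 7 higher of the 22 in the table (28 on the list) and a median of -0.78. The lower ones held BMS1, a GTPase of the processome (-1.78), HEATR1 (-1.74), WDR43 (-1.69) and WDR36 (-1.85), all subunits of it. The higher ones held TBL3, also a processome subunit (0.57), and NOB1, the nuclease that makes the 3′ end of the 18S ribosomal RNA (0.26). Both of these changed sign after removal of the trend, TBL3 to -0.50 and NOB1 to -0.70. By the same test 17 of the 22 were then lower and 3 higher, against 54.5% and 14.8% of all listed genes.

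The snoRNP proteins divided within each kind of particle. Box C/D snoRNPs methylate ribosomal RNA through FBL (fibrillarin), the methyltransferase, held by a core that includes NOP58. FBL had 6192, 6921 and 5649 normalized counts in DU145-TFEB and 4001, 3701 and 4039 in DU145-vector, higher in every DU145-TFEB library (log2 fold change 0.67 ± 0.085, limma adjusted p = 6.24e-05). NOP58 had 412.5, 380.4 and 519.2 against 1302, 1954 and 1325, lower in every DU145-TFEB library (-1.79 ± 0.17, limma adjusted p = 1.32e-05). FBL and NOP58 lie on chromosomes 19 and 2 and have GC contents of 56.4% and 42.1%.

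The ratio of 2 genes within a library does not depend on the size factors. The ratio of FBL to NOP58 was 15.01, 18.2 and 10.9 in DU145-TFEB and 3.07, 1.89 and 3.05 in DU145-vector, 5.51-fold higher (log2 difference 2.46; exact two-sided permutation p = 0.1, the smallest that 3 against 3 libraries allow). After removal of the trend the log2 difference was 0.86, as FBL then stood at -0.33 and NOP58 at -1.18. The ratios here and below were chosen after the values had been seen.

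Box H/ACA snoRNPs turn uridine into pseudouridine through DKC1 (dyskerin), with the small protein NOP10 bound to it. NOP10, the shortest member at 554 bases of exon, had 1957, 2282 and 1943 normalized counts in DU145-TFEB and 1682, 1675 and 1794 in DU145-vector (log2 fold change 0.26 ± 0.084, limma adjusted p = 0.0127). DKC1 had 1571, 1897 and 1631 against 2447, 2603 and 2385 (-0.55 ± 0.087, limma adjusted p = 0.00026). Neither gene's groups overlapped, and the ratio of NOP10 to DKC1 was 1.25, 1.20 and 1.19 in DU145-TFEB against 0.688, 0.643 and 0.752 in DU145-vector, 1.75-fold higher (exact permutation p = 0.1). Their GC contents are close, at 47.1% and 48.3%, and the log2 difference was 0.81 as deposited and 1.14 after removal of the trend. DKC1 exons hold 2 small nucleolar RNA genes and 1 microRNA gene on the same strand.

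Of 13 further snoRNP genes 11 were in the table, 6 higher and 5 lower, with a median of 0.28. Among them, NHP2 of the H/ACA core (0.44), SNU13 of the C/D core (0.28) and the assembly ATPases RUVBL1 (0.49) and RUVBL2 (0.46) were higher. With the trend removed, NHP2 was -0.29, SNU13 -0.42 and RUVBL2 -0.55, and RUVBL1 was 0.04. The assembly factors ZNHIT6 (-1.23), NUFIP1 (-1.03) and NAF1 (-0.68) were lower. By the same test after removal of the trend 5 of the 11 were lower and 1 was higher, against 54.5% and 14.8% of all listed genes.

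**Figure D2:**
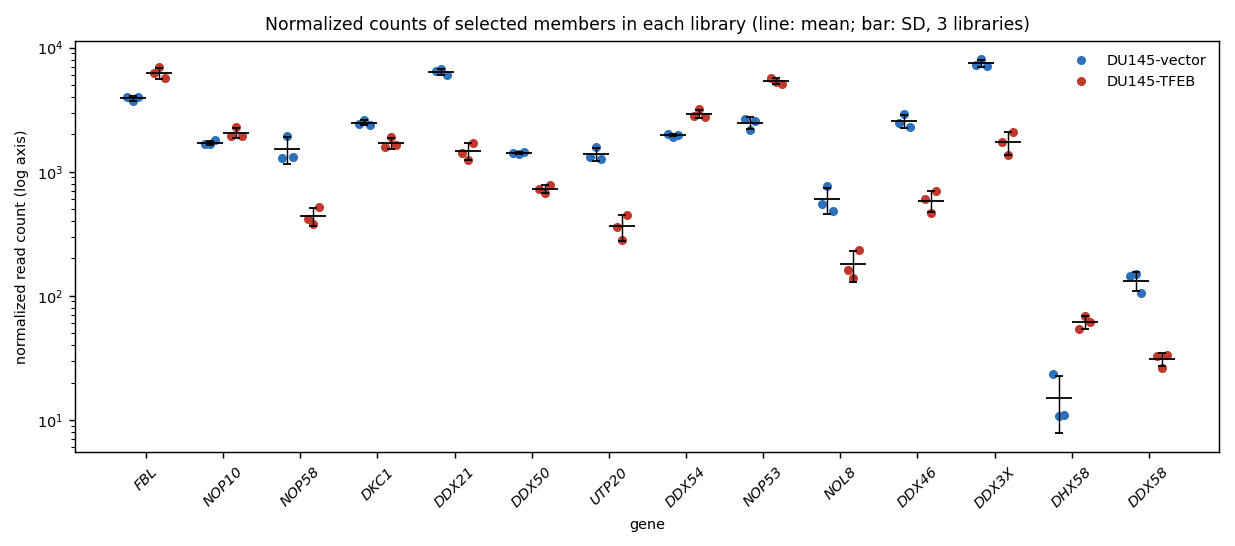
The normalized read count (log axis) is plotted in each of the 3 DU145-vector (blue) and 3 DU145-TFEB (red) libraries for 14 members, with a black line at the mean and a bar of 1 SD. FBL and NOP10 are higher in DU145-TFEB while NOP58 and DKC1 are lower, and in none of the 14 do the groups overlap.

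Of the 10 large-subunit members, 6 were lower and 4 were higher, with a median of -0.40. NOL8, a nucleolar protein, had 162.0, 139.2 and 235.7 normalized counts in DU145-TFEB and 551.8, 761.7 and 481.0 in DU145-vector, a log2 fold change of -1.74 ± 0.22 (limma adjusted p = 5.98e-05). Its exons overlap those of CENPP on the other strand. DDX18, a large-subunit helicase, fell as well, from 2427, 2503 and 2116 normalized counts in DU145-vector to 709.2, 686.1 and 895.0 (-1.63 ± 0.11, limma adjusted p = 3.98e-06).

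On the other side, NOL12 had 173.6, 157.4 and 217.0 normalized counts in DU145-TFEB against 55.9, 63.4 and 100 in DU145-vector (1.34 ± 0.23, limma adjusted p = 0.000415), with exons that overlap the gene Z83844.1 on the same strand. NOP53, which helps to process a ribosomal RNA of the large subunit, had 5703, 5331 and 5092 against 2664, 2173 and 2582 (1.12 ± 0.090, limma adjusted p = 6.14e-06). Both stayed positive after removal of the trend, at 0.36 and 0.09, without passing the test there. BOP1, which with PES1 and WDR12 forms the PeBoW complex, had 2456, 3208 and 2302 against 1817, 1805 and 1980 (0.49 ± 0.12, limma adjusted p = 0.00285), and its value after removal of the trend was -0.58.

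The helicases DDX54 and DDX18 show the spread within the large-subunit list. Their ratio was 3.97, 4.64 and 3.09 in DU145-TFEB and 0.827, 0.767 and 0.936 in DU145-vector, 4.58-fold higher (exact permutation p = 0.1), and the log2 difference of 2.19 became 0.10 after removal of the trend, DDX54 going from 0.57 to -0.46. Their GC contents are 60.9% and 40.2%. Among the other genes of the large-subunit list 25 were lower and 6 were higher of the 31 in the table (44 on the list), with a median of -0.82. GTPBP4, a GTPase of large-subunit assembly (-1.54), GNL3 or nucleostemin (-1.37) and NPM1 or nucleophosmin (-0.65) were lower, and WDR12, the PeBoW partner of BOP1, was also lower (-0.31). With the trend removed, WDR12 was 0.75 and NPM1 was 0.05. By the same test 23 of the 31 were then lower and 3 higher, against 54.5% and 14.8% of all listed genes.

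Among the 12 splicing helicases, 7 were lower and 5 were higher, with a median of -0.79. DDX46, the human Prp5, which acts when the U2 particle joins the branch site, had 599.8, 463.2 and 693.6 normalized counts in DU145-TFEB and 2483, 2922 and 2303 in DU145-vector (-2.14 ± 0.15, limma adjusted p = 3.75e-06). The exons of DDX46 overlap those of C5orf24 on the same strand. DHX15, the human Prp43, which takes the spliceosome apart, had 1181, 1129 and 1408 against 3983, 4732 and 4140 (-1.79 ± 0.10, limma adjusted p = 2.37e-06). DHX40, a related DEAH-box protein, had 537.7, 488.6 and 732.0 against 1981, 2014 and 1835 (-1.75 ± 0.14, limma adjusted p = 5.77e-06).

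None of these 3 had overlapping groups. The 5 higher splicing helicases lay within a narrow range, from 0.40 (DHX38, the human Prp16) to 0.53 (DDX23, the human Prp28). DDX23 had 4782, 5307 and 4326 normalized counts against 3210, 3321 and 3419 (0.53 ± 0.083, limma adjusted p = 0.000239), and was -0.03 after removal of the trend. All 5 changed sign there, DHX38 to -0.44, DHX16 to -0.39, DDX39A to -0.51 and DDX41 to -0.43. DDX5 and DDX17, close paralogs that act in splicing and transcription, moved by like amounts (-0.89 ± 0.087 and -0.87 ± 0.097). Their ratio was 1.09, 1.44 and 1.03 in DU145-TFEB and 1.22, 1.23 and 1.15 in DU145-vector (log2 difference -0.03, exact permutation p = 0.9).

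The helicases of translation, export and decay had the lowest median among the lists of more than 5 members, -1.35, with 12 of 16 lower. DDX3X, which promotes translation of mRNAs with structured leaders, had 1740, 1364 and 2097 normalized counts in DU145-TFEB and 7290, 8036 and 7091 in DU145-vector (-2.13 ± 0.14, limma adjusted p = 3.26e-06). It is the longest member, at 15892 bases of exon. Its Y-linked copy DDX3Y had the largest decrease of all members (-2.37 ± 0.24, limma adjusted p = 1.79e-05), and reads of the pair can be shared, so that their separate values are uncertain.

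DHX29, which helps the small subunit to scan structured leaders, had 352.5, 288.4 and 435.1 normalized counts against 1351, 1549 and 1201 (-1.94 ± 0.15, limma adjusted p = 5.78e-06). DDX6, a helicase of mRNA decay and P-bodies, had 723.9, 676.1 and 920.0 against 2787, 2902 and 2539 (-1.84 ± 0.12, limma adjusted p = 3.22e-06). In both genes, as in DDX3X, the second DU145-TFEB library was the lowest and the third the highest of the group.

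The 4 higher members of this list were DHX30, DHX34 and the mRNA export pair DDX19A and DDX19B. DHX30, which assembles mitochondrial ribosomes, had 3839, 4743 and 3683 normalized counts against 2845, 2767 and 2996 (0.50 ± 0.098, limma adjusted p = 0.000884), and was -0.40 after removal of the trend. DDX19A (0.31 ± 0.11) and DDX19B (0.48 ± 0.14) are near copies next to each other, among which reads can be divided. Their ratio did not separate the groups (exact permutation p = 0.2). After removal of the trend DHX34 was -0.58, and DDX19A (0.10) and DDX19B (0.04) no longer passed the test, so that none of the 4 was called higher there. Of 4 other listed genes in the table, the nonsense-mediated decay helicase UPF1 (0.97) and the exosome helicase SKIV2L (0.84) were higher, and YTHDC2 (-2.25) and EIF4A2 (-0.32) were lower. SKIV2L and EIF4A2 changed sign after removal of the trend, to -0.11 and 0.62.

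The sensors of viral RNA moved in opposite directions. DDX58, which encodes RIG-I, had 32.6, 26.4 and 33.2 normalized counts in DU145-TFEB and 143.1, 149.2 and 106.0 in DU145-vector (-2.07 ± 0.20, limma adjusted p = 1.44e-05). DHX58, which encodes LGP2, a RIG-I-like receptor without the signalling domains, had 53.7, 68.2 and 61.3 against 23.5, 10.7 and 11.0 (2.03 ± 0.31, limma adjusted p = 0.000217). The groups of both were separate at low depth, with as few as 11 reads of DHX58 in a DU145-vector library.

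The ratio of DHX58 to DDX58 was 1.65, 2.59 and 1.84 in DU145-TFEB and 0.164, 0.0719 and 0.104 in DU145-vector, 18.6-fold higher (exact permutation p = 0.1). After removal of the trend DHX58 stood at 1.08 and DDX58 at -1.21, a log2 difference of 2.29. DDX60, an interferon-induced helicase, had 15.8, 12.7 and 22.8 normalized counts against 70.6, 57.5 and 47.0 (-1.73 ± 0.27, limma adjusted p = 0.000257).

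DDX60L, its neighbour on chromosome 4, had 56.8, 34.6 and 54.0 against 125.5, 185.3 and 120.0 (-1.55 ± 0.24, limma adjusted p = 0.00025), and reads can be divided between the pair. IFIH1, which encodes the third RIG-I-like receptor MDA5 and is no member, was higher at 35.8, 23.7 and 39.5 normalized counts against 16.7, 13.7 and 19.0 (0.94 ± 0.28, limma adjusted p = 0.00824). Of these receptors LGP2 and MDA5 were thus higher and RIG-I lower.

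DDX11, a DNA helicase of sister chromatid cohesion with near copies in the genome, had 1294, 1411 and 1361 normalized counts against 1015, 1114 and 980.0 (0.39 ± 0.081, limma adjusted p = 0.00137). It was -0.36 after removal of the trend. DDX50, a nucleolar paralog that lies next to DDX21 on chromosome 10, had 731.3, 679.7 and 782.9 against 1417, 1379 and 1450 (-0.95 ± 0.082, limma adjusted p = 7.92e-06). The ratio of DDX50 to DDX21 was 0.513, 0.542 and 0.458 in DU145-TFEB and 0.219, 0.205 and 0.242 in DU145-vector, so that DDX21 had the larger decrease by 2.27-fold (exact permutation p = 0.1). DDX50 and DDX21 have GC contents of 42.6% and 40.6% and lengths of 2692 and 5020 bases. The log2 difference was 1.18 as deposited and 0.76 after removal of the trend.

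Per kilobase of exon, the 3 most abundant members in DU145-vector were NOP10 (3099 normalized counts per kilobase), NCL (1805) and FBL (1801). In DU145-TFEB they were NOP10 (3720), FBL (2878) and NCL (1119). NCL and FBL were thus nearly level in DU145-vector, and FBL was the higher in DU145-TFEB. DHX58 (3.93) and DDX60 (8.65) were the least abundant members per kilobase in DU145-vector.

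The assembly factors were next compared with each other by gene length, the union of the exons in bases. In the 12 shortest of the 35 members with assembly roles (554 to 4203 bases) the median log2 fold change was 0.26, with 7 higher and 5 lower. The 12 of middle length had a median of -0.45 (3 higher, 9 lower), and the 11 longest (6450 to 10376 bases) had a median of -1.24 (1 higher, DHX37, and 10 lower). The whole table showed a like gradient, with medians of 0.48, -0.39 and -0.89 in its 3 parts of equal number, from short to long.

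Short factors that fell were UTP3, NOP58, UTP11, NOL10 and DKC1, with GC contents of 41.8 to 48.3%, so that short length and a positive fold change did not go together in every factor. The rank correlation of the log2 fold change with length was -0.41 over the 35 assembly factors, -0.37 over the 34 other helicases, -0.40 over all 69 members and -0.34 over all listed genes. Length and GC content also ran together, with a rank correlation of -0.41 over the assembly factors. With GC content held fixed (a partial rank correlation) the relation with length was -0.12 over the assembly factors and -0.14 over the members. It was -0.22 over the other helicases and -0.23 over all listed genes. With length held fixed, the relation with GC content remained 0.85 over the assembly factors and 0.87 over the members. It was 0.87 over the other helicases and 0.73 over all listed genes. These are descriptions over genes that share the same 6 libraries.

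**Figure D3:**
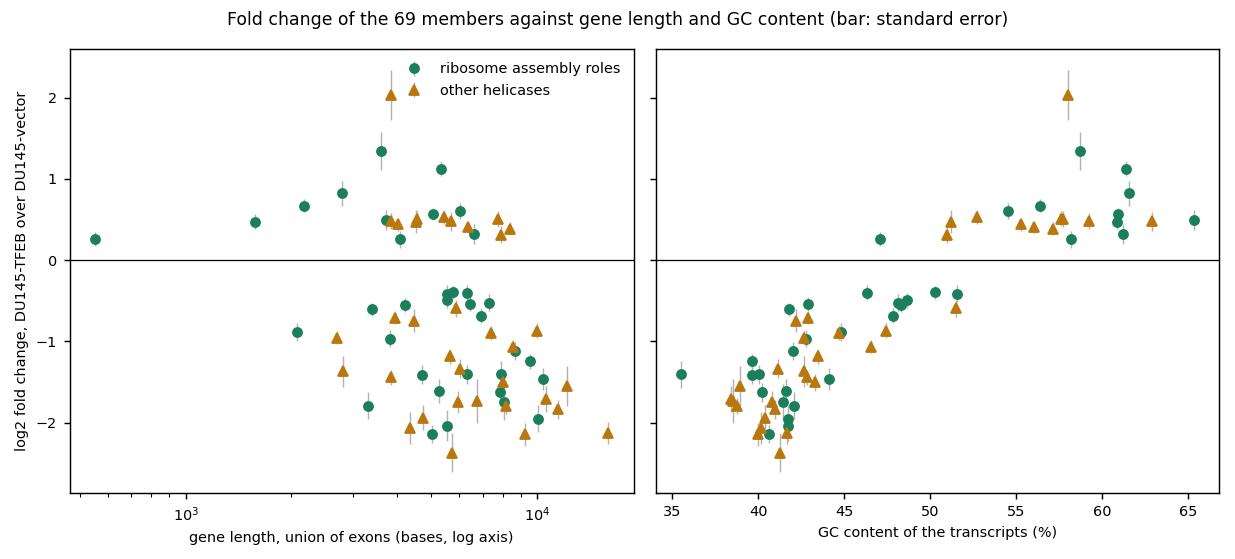
The log2 fold change of the 69 members, with bars for the standard error, is plotted against gene length in bases (left, log axis) and GC content in percent (right), with circles for the 35 members with assembly roles and triangles for the 34 other helicases. The points form a broad slope with length (rank correlation -0.40) and a narrow one with GC content (0.89).

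The GC contrast between the groups had the same sign in all libraries of a group. The values are relative to the mean of the 6 libraries, so a positive contrast in 1 group goes with a negative one in the other. Each member's log2 value was taken as its difference from the mean of the 6 libraries, and the median of the 35 members with the higher GC content minus that of the 34 with the lower came to 0.97, 1.23 and 0.67 in DU145-TFEB replicates 1 to 3 and to -0.87, -1.09 and -0.75 in DU145-vector replicates 1 to 3. The second library had the largest contrast in both groups, and the third the smallest. After removal of the trend 18 members changed sign, 16 of them from higher to lower, with UTP6 and UTP11 going the other way. DDX3Y (-1.49), DDX21 (-1.26), DDX58 (-1.21), UTP14C (-1.20) and NOP58 (-1.18) then had the largest decreases, all smaller than under the deposited scaling. DHX58 (1.08) and NOP10 (0.52) had the largest increases.

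**Figure D4:**
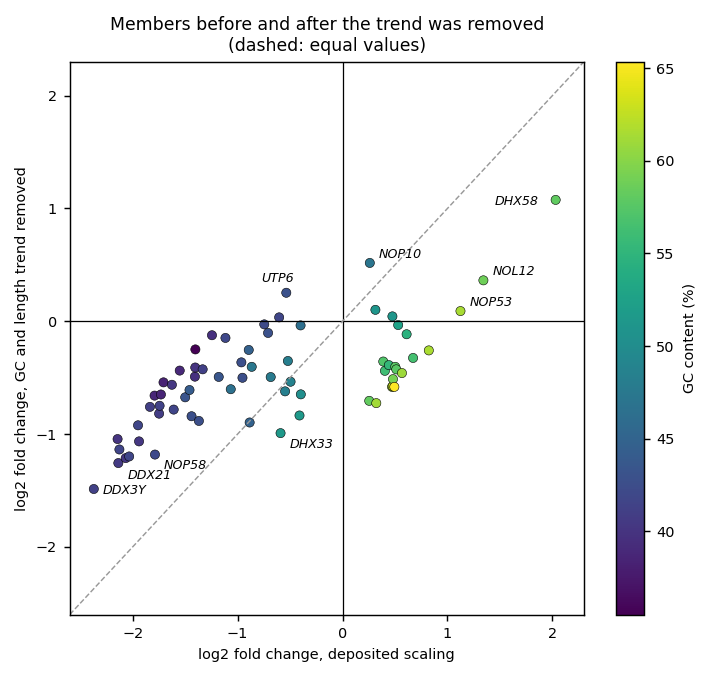
Each point is 1 of the 69 members, with its log2 fold change under the deposited scaling (horizontal axis) and after removal of the GC and length trend (vertical axis), coloured by GC content in percent. 61 of the 69 points lie below 0 on the vertical axis, and DHX58 and NOP10 stand highest.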

How the data were processed

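Reads of 6 polyA libraries were processed by the authors. The submitters' processing notes name CASAVA 1.8, HISAT2 2.1.0, edgeR and GRCh38, and the study's methods name the NEBNext Ultra kit and DESeq2. The counting program and its use of strand are not given in the sources used here, and 35 members have exons that overlap another GENCODE 29 gene. The authors deposited a normalized signal (each gene's read count divided by 1 size factor per library, 0.950 to 1.10) for each library. They also deposited group means, log2 fold changes and p-values of their own comparison, which were not used except to see that every listed gene has an adjusted p-value below 0.05. Gene lengths in the table equal the exon union of GENCODE 29 for 10542 of 10542 genes, and GC content was available for 10537. Columns were matched to samples by name, with NC taken as the vector group.

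The deposited signal was tested as log2(normalized count + 1) with limma 3.58.1 (mean-variance trend, R 4.3.3) over all listed genes, without a block and with Benjamini-Hochberg adjustment. No gene fell under the minimum mean of 1 normalized count. Fold changes are on that scale, which understates changes of low genes. Reads were recovered by dividing each library by its smallest step, where all values were whole within 0.01. These reads were tested again with DESeq2 1.42.0 and with edgeR 4.0.16. Other settings were the pseudocount (0.5 and 10), at least 10 reads in every library, median of ratios, quantile normalization, removal of a loess trend (span 0.5) on GC content and length per library, a replicate block and leaving out each library. At least 100 reads in every library were recorded for 61 members. The depth limits the precision of the few others. The members, role lists, marker list and motif were chosen with earlier results of these data known. Members named with all values were up to 15 with the largest change past both cutoffs, the highest and lowest of each role list with a mean of at least 100, BOP1, FBL, NCL and DKC1, and the 3 longest and shortest. DDX3Y, a Y-linked gene, is given by its fold change only. NOP53, DDX18, DDX54, DDX5, DDX17, DDX19A, DDX19B, UTP6 and UTP11, the pathway genes given as examples and the ratios were chosen after their values had been seen. Scripts were tested on simulated data.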

Additional observations from a re-analysis of the deposited data

How the results depend on the processing

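The count of higher members went from 22 to 3 after removal of the GC and length trend, with or without the replicate block. The share of all listed genes went from 47.6% to 14.8% without the block. Of the 22, 2 were still higher and 13 were lower by limma without the block, and UTP6 came from the lower members. The count past both cutoffs was 2 higher with median of ratios (4.42% of all listed genes) or quantile normalization (5.34%), 3 higher and 30 lower at an absolute log2 fold change above 1 (8.41% and 31.1%), 10 lower with quantile normalization (7.66%) and 0 in either direction after removal of the trend with or without the block (1.44% and 3.79% of all listed genes without it). When each library was left out, it ran from 1 to 2 higher (2.31% to 2.8% of all listed genes) and from 16 to 22 lower (12.2% to 19.4%). The median log2 fold change of the members was -0.63 with median of ratios, -0.59 with quantile normalization and -0.50 after removal of the trend with or without the block, while that of all listed genes went from -0.36 to -0.12, -0.03 and -0.32. With GC alone removed, the rank correlation with length was -0.35 over the members and -0.25 over the assembly factors. Of the 31 members named by the rule, those that reversed were POLR1B with quantile normalization (0.00960) and, after removal of the trend with or without the block, DDX11 (-0.36), RRP9 (-0.58), BOP1 (-0.58), DHX30 (-0.40), DDX23 (-0.033), FBL (-0.33) and DDX49 (-0.26). The cause was not tested. Of 496 values of the 31 named members under the alternatives, 473 kept their direction and their side of the threshold, 8 no longer passed (3 values of POLR1B, POLR1C with quantile normalization, NOL12 after removal of the trend with and without the block, and DDX60 and DDX60L after removal of the trend with the block) and 15 reversed. Of the other members, DDX31 also reversed with quantile normalization, and 11 more reversed after removal of the trend. RRP7A lost its call when any library but DU145-TFEB replicate 3 was left out, DHX37 without DU145-TFEB replicate 2, DU145-vector replicate 1 or DU145-vector replicate 3, and DDX19A without DU145-vector replicate 3.

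Nothing in the labels says that libraries with the same number share more than that number. The correlations of their deviations from the group means were -0.02, -0.25 and -0.14. Those of libraries with different numbers ran from -0.15 to 0.25. As the deviations within a group cancel, these values cannot decide whether libraries of the same number shared a batch. With the replicate block 21 members were higher and 47 lower, RRP7A being lost, and 1 and 18 passed both cutoffs. Libraries of 1 group differed by more than sampling noise (chi-square per gene 2.96 to 26.6, against 163 to 324 between groups).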
